A study of Mus musculus with 6 samples.

Results

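Mitophagy, the autophagic removal of mitochondria, and the fusion and fission of the mitochondrial network are described here through 10 genes measured in mouse haematopoietic stem cells (HSCs). The genes are *Pink1*, *Bnip3*, *Bnip3l*, *Fundc1*, *Phb2*, *Mfn1*, *Mfn2*, *Opa1*, *Dnm1l* and *Fis1*. They were chosen by name, as the rows of the expression table whose gene symbol equals one of these, and all 10 were found among its 46959 rows. RNA was sequenced from HSCs of 3 control and 3 *MaeaCsf1r-Cre* libraries, and the question was how expression differs when *Maea*, a subunit of an E3 ubiquitin ligase, is deleted. Each library was made from about 2000 HSCs sorted from bone marrow and pooled from 2 mice, aged 8 weeks by the series' design text and 7 to 12 weeks by the methods. In *MaeaCsf1r-Cre* mice a floxed *Maea* is deleted by Cre under the *Csf1r* promoter, a promoter of the macrophage lineage. The authors report that this Cre also deleted *Maea* in haematopoietic stem and progenitor cells. The controls were littermates, whose genotype the labels give as control with no further detail.

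Damaged mitochondria are marked for autophagy in more than one way. The kinase PINK1 accumulates on mitochondria that have lost their membrane potential and starts the coating of their surface with ubiquitin chains, which are read by autophagy adaptors. Receptors anchored in the outer membrane (BNIP3, BNIP3L and FUNDC1) bind the autophagosome protein LC3 directly, and prohibitin 2 (PHB2) does so from the inner membrane once the outer membrane has ruptured. Mitofusins 1 and 2 fuse outer membranes, OPA1 fuses inner membranes and shapes cristae, the dynamin DRP1 (encoded by *Dnm1l*) constricts and divides the organelle, and FIS1 is an outer membrane protein of the fission machinery. HSCs hold their mitochondria in a low metabolic state, and mitophagy is known to act in their maintenance.

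Promoter sequences are shown for 4 of the genes because they are the ones described below in which same-numbered libraries moved together (*Mfn1*, *Opa1* and *Phb2*) or whose known regulator was measured (*Bnip3*, a textbook target of the hypoxia-inducible factor HIF). They are RefSeq promoters of GRCm38.p6, cut to the bases upstream of any annotated exon, each printed 5′ to 3′ on the strand of its gene. Capitals mark the letters of motifs that were searched on both strands. The core of the HIF site was searched in one form as ACGTG and in another form as GCGTG. The E-box of basic helix-loop-helix factors was searched as CACGTG, which contains the first of these forms. The core bound by the ETS factor GABPA was searched as CCGGAAG, and part of the site of the respiratory factor NRF1 as GCGCATGC. The core of FoxO factors was searched as TGTTTAC, and that of the erythroid GATA factors as AGATAA.
Bnip3, chr7:138909520-138909756, minus strand: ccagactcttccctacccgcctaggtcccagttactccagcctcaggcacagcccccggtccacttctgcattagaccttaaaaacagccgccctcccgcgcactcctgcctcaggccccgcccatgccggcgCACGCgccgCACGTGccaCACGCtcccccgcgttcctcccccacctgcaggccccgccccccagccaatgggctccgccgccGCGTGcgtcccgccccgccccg
Mfn1, chr3:32529232-32529464, plus strand: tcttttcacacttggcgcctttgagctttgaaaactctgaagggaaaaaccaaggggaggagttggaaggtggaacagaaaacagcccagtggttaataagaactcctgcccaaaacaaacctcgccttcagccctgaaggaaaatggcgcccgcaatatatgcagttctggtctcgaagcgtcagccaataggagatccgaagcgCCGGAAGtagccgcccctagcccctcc
Opa1, chr16:29579084-29579333, plus strand: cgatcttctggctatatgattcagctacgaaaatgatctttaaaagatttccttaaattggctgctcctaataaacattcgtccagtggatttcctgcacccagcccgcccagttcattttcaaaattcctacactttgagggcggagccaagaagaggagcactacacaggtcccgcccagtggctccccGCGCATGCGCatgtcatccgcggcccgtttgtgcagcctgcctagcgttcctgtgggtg
Phb2, chr6:124712039-124712288, plus strand: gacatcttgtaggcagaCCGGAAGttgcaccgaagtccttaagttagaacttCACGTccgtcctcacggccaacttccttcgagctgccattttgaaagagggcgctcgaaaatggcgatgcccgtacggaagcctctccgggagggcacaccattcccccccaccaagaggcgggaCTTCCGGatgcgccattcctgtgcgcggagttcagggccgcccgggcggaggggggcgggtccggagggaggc
The *Bnip3* promoter, with 72.6% G and C, held 1 CACGTG, read as ACGTG on either strand, and 3 GCGTG. The *Mfn1* promoter held 1 CCGGAAG and the *Phb2* promoter held 2 CCGGAAG and 1 ACGTG. The *Fis1* promoter, not printed, also held 1 CCGGAAG. The *Opa1* promoter held GCGCATGC on both strands at 1 overlapping place. Over the 32851 RefSeq promoters, searched in the 250 bases before each start, 16.6% held ACGTG, 28.2% GCGTG, 6.02% CACGTG, 6.91% CCGGAAG, 2.26% GCGCATGC, 3.17% TGTTTAC and 9.99% AGATAA. Among the promoter entries of the genes described here, TGTTTAC was found in 0 and AGATAA in 1, an entry of *Fis1*. A match describes the letters and was not tested as a binding site. Of the 10 genes 9 had an entry in the promoter table, with *Bnip3l* the exception.

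Expression is given as CPM, the share of a library's reads that fall on a gene, scaled to a fixed total. The depth behind these values was 32968000 to 39614000 reads in control and 44159000 to 60937000 in *MaeaCsf1r-Cre* libraries, so the groups did not overlap in depth and depth and genotype cannot be told apart. The least covered value among the 10 genes rested on about 788 reads, a counting error of 3.56%. The targeted gene *Maea* was measured at 108, 116 and 123 CPM in controls 1, 2 and 3 and at 76.9, 88.6 and 101 CPM in *MaeaCsf1r-Cre* 1, 2 and 3, lower in each of the latter than in each control. The 11 HSC marker genes were detected in every library, with a summed level of 1171 to 1855 CPM in control and 825 to 1525 CPM in *MaeaCsf1r-Cre* libraries. Of the 8 B cell markers 7 were under 1 CPM in every library, with *Ms4a1* and *Pax5* at 0 and *Cd79b* at 12.9 to 27.2 CPM. Of the 8 T and NK cell markers 4 were, with *Cd3g* and *Cd8a* at 0, whereas *Nkg7* was at 38.7 to 85.4 CPM and *Lck* at 6.6 to 13.2 CPM.

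None of the 10 genes passed the test between *MaeaCsf1r-Cre* and control HSCs. The log2 fold changes ran from -0.31 for *Fundc1* to 0.18 for *Phb2*, 6 below and 4 above 0, with a median of -0.03 beside -0.06 over the 12955 genes tested. Of all genes tested 60.9% had a log2 fold change below 0. Adjusted p-values, from limma's moderated test with Benjamini-Hochberg adjustment over all 12955 genes, lay between 0.967 and 0.992. Of all genes tested 0.00772% (1 gene) passed. At an unadjusted p under 0.05 there were 0 of the 10 genes, against 3.99% of all genes. The 3 values of one group overlapped those of the other in each of the 10 genes, whereas among all genes tested a share of 6.06% had every *MaeaCsf1r-Cre* value below every control value, and 2.49% had every one above. Over the 10 genes the 95% intervals of the differences reached no lower than -0.80, for *Bnip3*, and no higher than 0.68, for *Mfn1*, on the log2 scale. These bounds do not apply to each gene, and the interval of *Bnip3l*, for example, was -0.29 to 0.26. A change within the interval of a gene was not excluded for that gene at this number of libraries. Fold changes are on the log2(CPM + 1) scale.

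**Figure D1:**
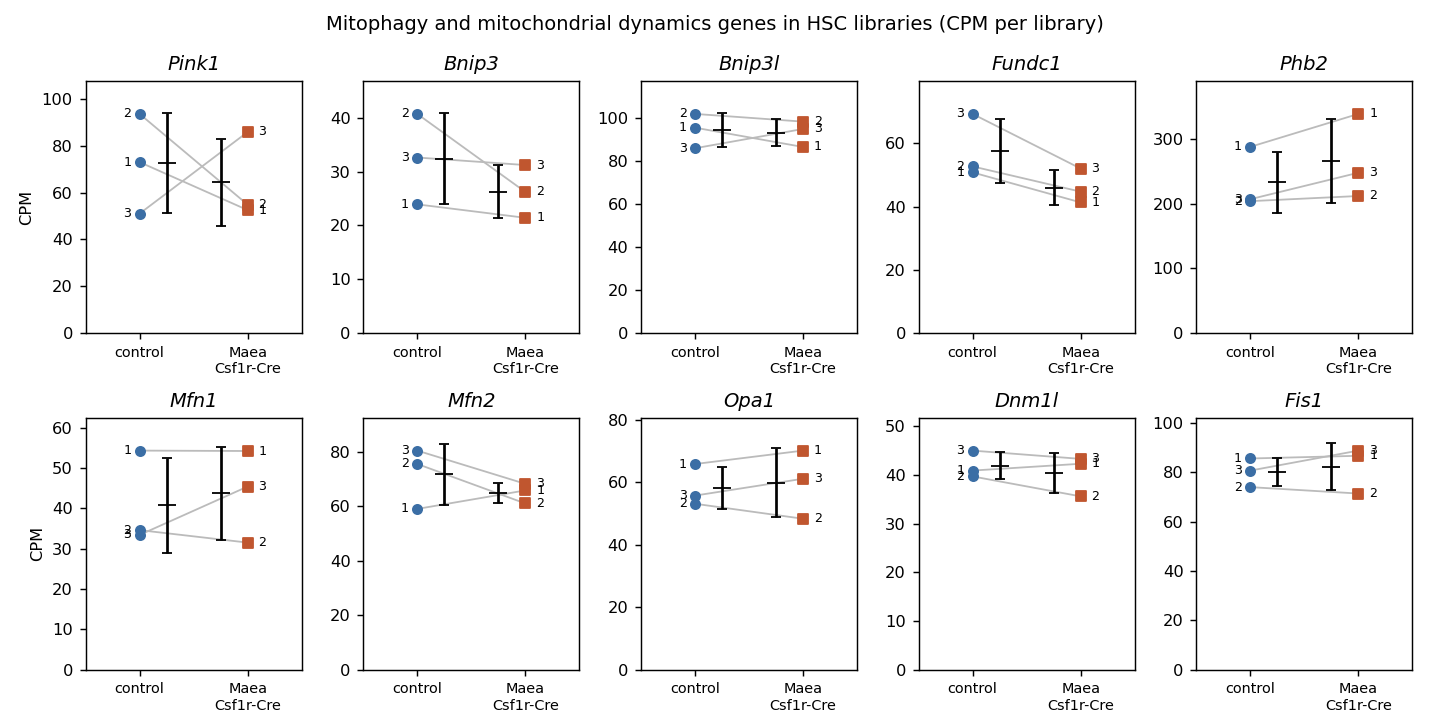
CPM of the 10 genes in each library, with a panel per gene and the vertical axis from 0; circles are control and squares *MaeaCsf1r-Cre* libraries, numbers and grey lines mark same-numbered libraries, and black bars give the mean ± SD (n = 3). The groups overlap in every panel, and the lines of *Bnip3* and *Fundc1* all slope down whereas those of *Phb2* all slope up.

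*Pink1*, which encodes the kinase that starts the ubiquitin-dependent route, varied more between libraries of one group than between the groups. It was measured at 73.0, 93.6 and 51.0 CPM in controls 1, 2 and 3 and at 52.5, 54.8 and 85.9 CPM in *MaeaCsf1r-Cre* 1, 2 and 3. The highest and the lowest of the 6 values were both controls, and replicate 3 went the opposite way to replicates 1 and 2. The log2 fold change was -0.16 (SE 0.26, 95% interval -0.77 to 0.44), the widest interval of the 10 genes. Without control replicate 2 it was 0.04. The gene lies on chromosome 4 from 138313409 to 138326307 on the minus strand of GRCm38.

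Among the receptors, *Fundc1*, whose product binds LC3 in hypoxia, had the lowest p of the 10 genes. Its level was 50.8, 52.7 and 69.3 CPM in controls 1, 2 and 3 and 41.3, 44.7 and 52.0 CPM in *MaeaCsf1r-Cre* 1, 2 and 3. Every *MaeaCsf1r-Cre* library was below the control of the same number, and only *MaeaCsf1r-Cre* 3 reached into the range of the controls. Control HSCs averaged 57.6 ± 10.2 CPM and *MaeaCsf1r-Cre* HSCs 46.0 ± 5.49 CPM (SD, n = 3 each). This gave a log2 fold change of -0.31 (SE 0.16, 95% interval -0.69 to 0.07, adjusted p = 0.967 from limma). With the replicate number as a block the standard error was 0.10, the interval -0.55 to -0.07 and the unadjusted p 0.0167, and the adjusted p was 0.274, so the gene did not pass in either fit. In the blocked fit 13.9% of all genes had an unadjusted p under 0.05, and *Fundc1* was 1 of 10 here. *Fundc1* lies on the X chromosome from 17556564 to 17572325 on the minus strand. Whether fewer cells of one type or less RNA per cell underlies a lower level cannot be told apart in bulk RNA.

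*Bnip3*, which encodes a hypoxia-inducible receptor, was also lower in 3 of 3 pairs. The values were 23.9, 40.7 and 32.6 CPM in controls 1, 2 and 3 and 21.4, 26.2 and 31.2 CPM in *MaeaCsf1r-Cre* 1, 2 and 3. The largest step was in pair 2, and control 1 lay below both *MaeaCsf1r-Cre* 2 and 3. The log2 fold change was -0.28 (SE 0.23, 95% interval -0.80 to 0.24, adjusted p = 0.967 from limma). Lower values in 3 of 3 pairs were found in 2 of the 10 genes, beside 23.5% of all genes. Of the exon bases annotated to *Bnip3* (chromosome 7, 138890836 to 138909519, minus strand) 22.3% also belong to an antisense gene, *Gm45507*, and the library kit does not keep the strand, so reads from those bases cannot be told apart. A processed pseudogene that matches it at 98.9% identity over 564 bases, *Gm16439*, was listed at 1.9 to 3.09 CPM. A longer match, *AC160336.1* at 98.3% identity over 858 bases, had no listed level, and neither had *Gm6532* or *Gm45507*. The reads that *Bnip3* shares with these are not known.

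*Bnip3l*, also known as Nix and required to clear mitochondria from maturing red cells, had one of the smallest group differences. It was measured at 95.6, 102 and 86.0 CPM in controls 1, 2 and 3 and at 86.6, 98.4 and 95 CPM in *MaeaCsf1r-Cre* 1, 2 and 3. The log2 fold change was -0.02 (SE 0.12, 95% interval -0.29 to 0.26), and 0.05 after rescaling by median ratios. The level is uncertain, because the transcript of *Bnip3l-ps* matches *Bnip3l* at 99.2% identity over 663 bases and was itself listed at 46.1 to 56.3 CPM. *Bnip3l* lies on chromosome 14 from 66985239 to 67008877 on the minus strand.

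*Phb2*, which encodes a subunit of the inner membrane prohibitin ring, was the only one of the 10 genes higher in 3 of 3 pairs, beside 13.2% of all genes. Its level was 288, 204 and 207 CPM in controls 1, 2 and 3 and 339, 212 and 248 CPM in *MaeaCsf1r-Cre* 1, 2 and 3. Both libraries numbered 1 lay above the other 4. The log2 fold change was 0.18 (SE 0.21, 95% interval -0.30 to 0.66, adjusted p = 0.967 from limma), and -0.01 without *MaeaCsf1r-Cre* replicate 1. The ratio of *Phb2* to its partner *Phb* was 2.74 ± 0.37 (SD, n = 3) in control and 2.79 ± 0.34 (SD, n = 3) in *MaeaCsf1r-Cre* libraries, a difference smaller than the spread in either group. *Phb2* lies on chromosome 6 from 124712336 to 124716950 on the plus strand.

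The fusion genes differed among libraries and hardly between the groups. *Mfn1* was measured at 54.3, 34.6 and 33.4 CPM in controls 1, 2 and 3 and at 54.2, 31.5 and 45.4 CPM in *MaeaCsf1r-Cre* 1, 2 and 3. Libraries numbered 1 were again the highest, and the log2 fold change was 0.10 (SE 0.25, 95% interval -0.48 to 0.68). *Mfn2* was measured at 59.0, 75.5 and 80.4 CPM in controls 1, 2 and 3 and at 65.8, 61.0 and 68.2 CPM in *MaeaCsf1r-Cre* 1, 2 and 3. Its lowest value was control 1, the library with the highest *Mfn1*, and its log2 fold change was -0.13 (SE 0.15, 95% interval -0.47 to 0.21). The ratio of *Mfn2* to *Mfn1* in CPM was 1.09, 2.18 and 2.41 in controls 1, 2 and 3 and 1.21, 1.94 and 1.5 in *MaeaCsf1r-Cre* 1, 2 and 3, so this ratio too was lowest in the libraries numbered 1. *Opa1* was measured at 65.8, 53.1 and 55.7 CPM in controls 1, 2 and 3 and at 70.1, 48.3 and 61.1 CPM in *MaeaCsf1r-Cre* 1, 2 and 3. The libraries numbered 1 were the highest here too, and the log2 fold change was 0.03 (SE 0.17, 95% interval -0.36 to 0.42). *Mfn1* lies on chromosome 3 from 32529465 to 32579239 (plus strand), *Mfn2* on chromosome 4 from 147873599 to 147904704 (minus strand) and *Opa1* on chromosome 16 from 29579334 to 29654884 (plus strand).

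The fission genes had narrow spreads. *Dnm1l* was measured at 40.9, 39.7 and 45.0 CPM in controls 1, 2 and 3 and at 42.3, 35.6 and 43.3 CPM in *MaeaCsf1r-Cre* 1, 2 and 3. *Fis1* was measured at 85.6, 74.0 and 80.7 CPM in controls 1, 2 and 3 and at 86.7, 71.4 and 88.8 CPM in *MaeaCsf1r-Cre* 1, 2 and 3. In both genes the lowest value was *MaeaCsf1r-Cre* 2. The log2 fold change was -0.05 for *Dnm1l* (SE 0.14, 95% interval -0.37 to 0.26) and 0.03 for *Fis1* (SE 0.13, 95% interval -0.27 to 0.34). The ratio of *Opa1* to *Dnm1l*, an inner membrane fusion gene against the fission dynamin, was 1.39 ± 0.191 (SD, n = 3) in control and 1.48 ± 0.16 (SD, n = 3) in *MaeaCsf1r-Cre* libraries, within the spread of either group. By library it was 1.61, 1.34 and 1.24 in controls 1, 2 and 3 and 1.66, 1.36 and 1.41 in *MaeaCsf1r-Cre* 1, 2 and 3. It was thus higher in 3 of 3 pairs, with overlap between the groups. *Dnm1l* lies on chromosome 16 from 16312230 to 16358959 (minus strand) and *Fis1* on chromosome 5 from 136953275 to 136966234 (plus strand).

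**Figure D2:**
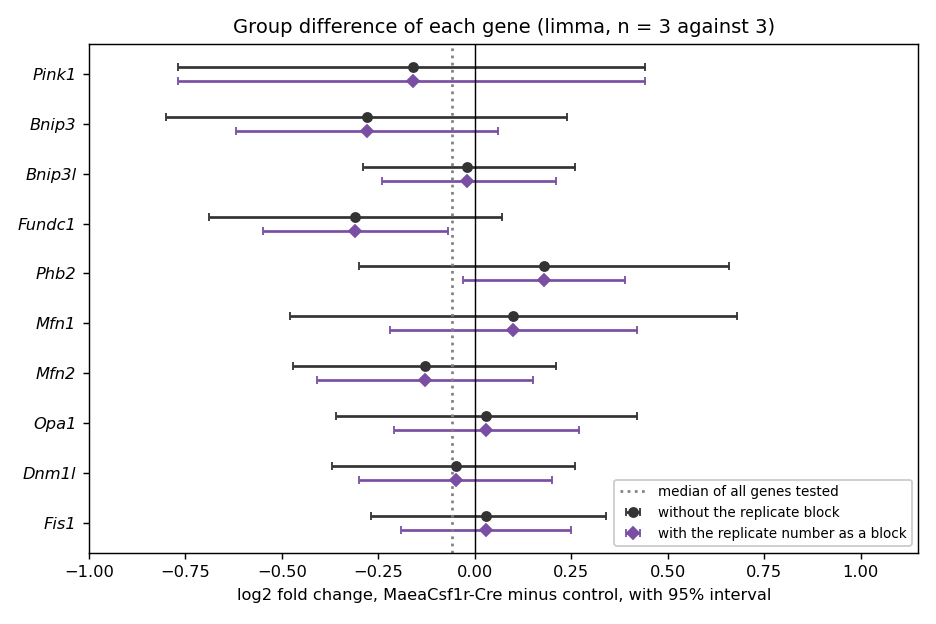
Log2 fold change (horizontal axis, *MaeaCsf1r-Cre* minus control, n = 3 each) of each gene with its 95% interval, circles without and diamonds with the replicate number as a block; the dotted line is the median of all genes tested, -0.06. Every interval without the block spans 0, and with the block only that of *Fundc1*, -0.55 to -0.07, does not.

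Levels can be compared between genes only per length, here as CPM per kb of the longest protein-coding transcript. *Phb2* stood highest at 177 ± 36.1 CPM per kb in control HSCs (SD, n = 3). *Fis1* followed at 84.5 ± 6.12 CPM per kb (SD, n = 3), apart from its neighbours in the order by more than their spread. *Pink1* at 30.5 ± 8.95, *Bnip3l* at 29.0 ± 2.42 and *Fundc1* at 29.0 ± 5.13 CPM per kb (SD, n = 3) did not differ beyond their spread. *Bnip3* at 18.5 ± 4.78 and *Mfn2* at 16.5 ± 2.58 CPM per kb (SD, n = 3) did not either. The lowest were *Dnm1l* at 10.6 ± 0.693, *Opa1* at 9.34 ± 1.08 and *Mfn1* at 8.93 ± 2.57 CPM per kb (SD, n = 3), again within their spread of each other. In *MaeaCsf1r-Cre* HSCs *Phb2* at 202 and *Fis1* at 86.8 CPM per kb (means, n = 3) were likewise the highest.

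Same-numbered libraries took like levels in several of the 10 genes. With the replicate number as a block the standard error went from 0.21 to 0.09 for *Phb2* and from 0.25 to 0.14 for *Mfn1*. *Pink1* did not share this, with log2 differences of -0.47, -0.76 and 0.74 in pairs 1, 2 and 3 and a standard error of 0.26 in both fits. By the mean of its 2 libraries, the pair numbered 1 was the highest for 4 genes (*Mfn1*, *Opa1*, *Fis1* and *Phb2*) and the lowest for another 4 (*Pink1*, *Bnip3*, *Fundc1* and *Mfn2*). The log2 level of *Mfn1* averaged 5.79 in pair 1, 5.09 in pair 2 and 5.32 in pair 3. That of *Bnip3* averaged 4.56 in pair 1, 5.07 in pair 2 and 5.04 in pair 3, so that the receptor was lowest where the mitofusin was highest. Over the 6 libraries Pearson's r was 0.96 between *Mfn1* and *Opa1*, 0.94 between *Mfn1* and *Phb2* and -0.81 between *Bnip3* and *Phb2*, as a description of 6 libraries that share these pairs.

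**Figure D3:**
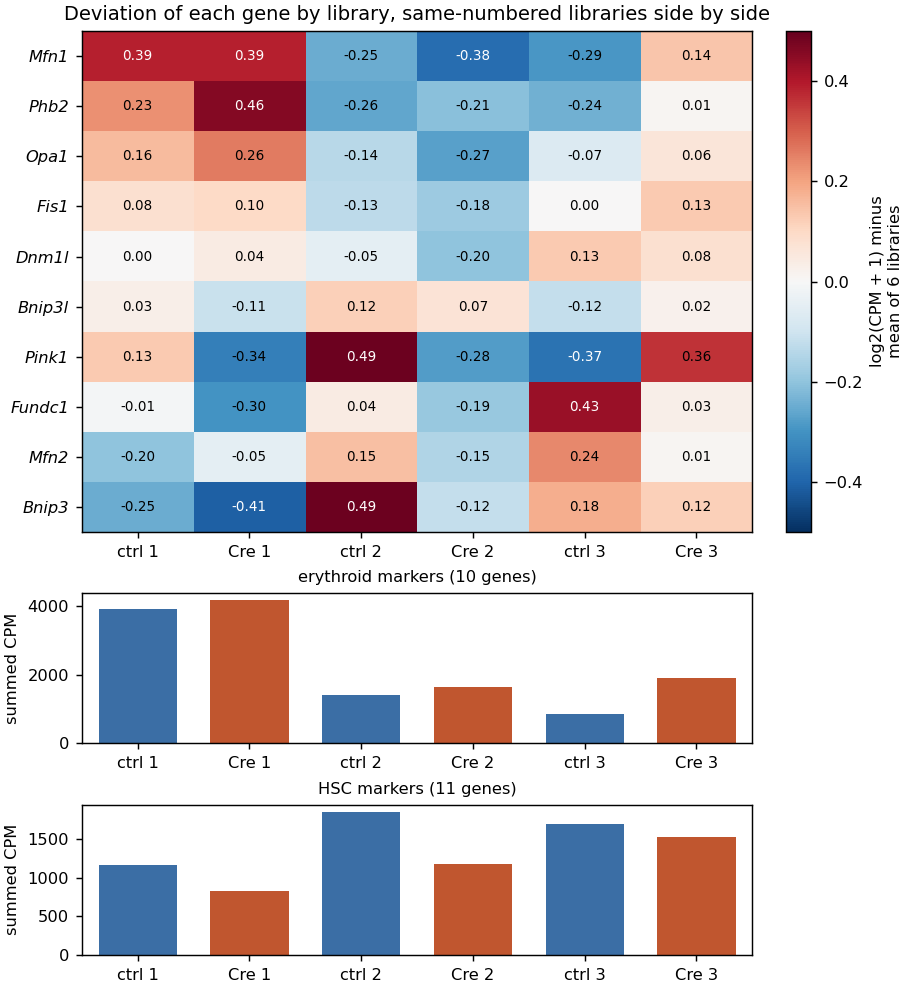
Top, log2(CPM + 1) of each gene minus its mean over the 6 libraries (colour scale and printed value), with same-numbered control (ctrl) and *MaeaCsf1r-Cre* (Cre) libraries side by side; below, the summed CPM of the erythroid and HSC markers as bars. *Mfn1*, *Phb2* and *Opa1* are above their mean in both libraries numbered 1, which also hold the highest erythroid sums, 3896 and 4153 CPM, of which *Car1* alone is 3356 and 3645 CPM.

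Some marker genes of other cells had like levels in same-numbered libraries as well. The 10 erythroid markers summed to 3896, 1406 and 856 CPM in controls 1, 2 and 3 and to 4153, 1648 and 1890 CPM in *MaeaCsf1r-Cre* 1, 2 and 3, so that the libraries with the most *Mfn1* and *Phb2* also had the highest erythroid sum. Most of it was *Car1*, at 3356, 1210 and 617 CPM in controls 1, 2 and 3 and at 3645, 1402 and 1486 CPM in *MaeaCsf1r-Cre* 1, 2 and 3, and *Klf1* and *Epor* were likewise highest in the libraries numbered 1. The globin genes were not, with *Hba-a1* at 10.5 CPM in *MaeaCsf1r-Cre* 1 and highest, at 32.5 CPM, in *MaeaCsf1r-Cre* 3. The megakaryocyte markers did not follow the replicate number, with sums of 480, 296 and 1341 CPM in controls 1, 2 and 3 and 353, 725 and 439 CPM in *MaeaCsf1r-Cre* 1, 2 and 3. Neutrophil and granulocyte markers summed to 302, 195 and 76.8 CPM in controls 1, 2 and 3. In *MaeaCsf1r-Cre* 1, 2 and 3 they summed to 164, 138 and 76.0 CPM. This sum too was highest in the library numbered 1 of each group, and 7 of the 9 genes were lower by the group mean. The T and NK cell sum was highest in the library numbered 2 of each group, at 79.5 and 97.3 CPM. By the group mean 5 of the 10 erythroid markers were lower and 5 higher, and *Alas2* was under 1 CPM in every library. Of the 7 megakaryocyte markers 6 were lower and 1 higher. The HSC markers summed to 1171, 1855 and 1692 CPM in controls 1, 2 and 3 and to 825, 1185 and 1525 CPM in *MaeaCsf1r-Cre* 1, 2 and 3, lowest in the libraries numbered 1 in each group, and 9 of the 11 were lower by the group mean. The 12 macrophage markers, whose lineage *Csf1r*-Cre also targets, summed to 255 to 319 CPM in control and to 109 to 288 CPM in *MaeaCsf1r-Cre* libraries, and 12 of the 12 were lower by the group mean. Most of this sum was *Lyz2*, at 181 to 296 CPM in control and 106 to 239 CPM in *MaeaCsf1r-Cre* libraries. The complement gene *C1qb*, more specific to macrophages, was at 3.79 to 8.98 CPM in control and 0 to 0.474 CPM in *MaeaCsf1r-Cre* libraries, with an adjusted p = 0.194 from limma. *Bnip3* and *Fundc1*, the genes lower in 3 of 3 pairs (beside 23.5% of all genes), moved the same way as the HSC and macrophage sums. Those sums were lower in *MaeaCsf1r-Cre* libraries in each pair, as were the B cell sum and the neutrophil and granulocyte sum. The erythroid sum was higher in each pair. The part of these markers in the results was not tested.

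In 10 lists there were 130 other genes, of which 125 could be tested, and 0 passed in either direction, without or with the replicate block, and with adjusted p-values from limma of at least 0.967 and 0.141. At an unadjusted p under 0.05 there were 3 genes (2.4%, beside 3.99% of all genes), and 12 with the block (9.6%, beside 13.9%). In 9 genes (7.2%, beside 6.06%) every *MaeaCsf1r-Cre* library was below every control library, and in 2 (1.6%, beside 2.49%) every one was above. Lower values in 3 of 3 pairs were found in 24 genes (19.2%, beside 23.5%) and higher values in 3 of 3 pairs in 31 (24.8%, beside 13.2%), 11 of these in the import list. The median log2 fold change of the 125 genes was 0.01. The counts of positive and negative genes given below for each list stand beside 60.9% negative over all genes tested.

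In the list of the PINK1 pathway and its regulators 10 of the 17 genes tested had a positive and 7 a negative log2 fold change, and 0 passed. *Usp8*, a deubiquitinase, was measured at 66.1, 63.1 and 63.9 CPM in controls 1, 2 and 3 and at 52.9, 45.5 and 54.0 CPM in *MaeaCsf1r-Cre* 1, 2 and 3. Its groups did not overlap, with a log2 fold change of -0.34 (SE 0.12, adjusted p = 0.967 from limma).

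Of the 5 other receptors of the outer membrane, *Mcl1*, better known as an inhibitor of apoptosis, averaged 164 ± 9.98 CPM in control against 143 ± 7.72 CPM in *MaeaCsf1r-Cre* HSCs (SD, n = 3 each), with no overlap and a log2 fold change of -0.19 (SE 0.11). *Fkbp8*, which also binds LC3, was at 193 ± 9.84 and 208 ± 9.42 CPM (SD, n = 3 each), with a log2 fold change of 0.11 (SE 0.11). Among the 5 adaptors, *Sqstm1*, encoding p62, had a log2 fold change of -0.17 (SE 0.12). *Optn*, encoding optineurin, was measured at 37.4, 18.8 and 22.7 CPM in controls 1, 2 and 3 and at 56.0, 21.1 and 38.3 CPM in *MaeaCsf1r-Cre* 1, 2 and 3. It was higher in 3 of 3 pairs and highest in the libraries numbered 1 of each group, with a log2 fold change of 0.49 (SE 0.37), and the other 4 adaptors were below 0.

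Around the fusion and fission genes 0 genes passed as well. Of the 14 fission factors 8 had a negative log2 fold change, and *Mtfr1l* averaged 121 ± 2.89 CPM in control against 108 ± 7.02 CPM in *MaeaCsf1r-Cre* HSCs (SD, n = 3 each), with no overlap. *Slc25a46*, an outer membrane protein of the same list, had a log2 fold change of -0.18 (SE 0.14). Of the 16 genes of fusion, cristae and OPA1 processing 9 were positive and 7 negative. The proteases that cut OPA1 were both among the lower, with *Oma1* at 24.0 ± 1.04 and 20.3 ± 0.855 CPM and *Yme1l1* at 86.6 ± 6.63 and 72.7 ± 12.6 CPM in control and *MaeaCsf1r-Cre* HSCs (SD, n = 3 each). The groups of *Oma1* did not overlap, and its log2 fold change was -0.23 (SE 0.14), beside 0.03 for its substrate *Opa1*. Of the 10 quality control proteases, which include both, 6 were negative.

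Among the 11 transport and tethering genes 7 were negative, and the groups of *Armcx3* did not overlap, with a log2 fold change of -0.20 (SE 0.13), whereas those of *Rhot1*, which encodes the motor adaptor MIRO1, overlapped at -0.17 (SE 0.16). Of the 19 biogenesis genes tested 10 were positive. *Top1mt*, the mitochondrial topoisomerase, averaged 9.83 ± 0.798 CPM in control against 12.3 ± 1.04 CPM in *MaeaCsf1r-Cre* HSCs (SD, n = 3 each), higher with no overlap, and *Polrmt*, the mitochondrial RNA polymerase, had a log2 fold change of 0.22 (SE 0.15). The list of 22 import genes had 17 positive, a median log2 fold change of 0.09 and 11 genes higher in 3 of 3 pairs, beside 13.2% of all genes. The median turned to -0.05 without *MaeaCsf1r-Cre* replicate 1 and to -0.01 without control replicate 2, and was 0.21 without *MaeaCsf1r-Cre* replicate 2 and 0.19 without control replicate 1. It was 0.15 with median ratios and 0.17 with a correction for transcript length. *Tomm6* was measured at 62.8, 50.2 and 54.2 CPM in controls 1, 2 and 3 and at 90.9, 56.2 and 67.5 CPM in *MaeaCsf1r-Cre* 1, 2 and 3. *Timm13* had a log2 fold change of 0.27 (SE 0.19). Like *Phb2*, the import genes were highest in the libraries numbered 1. Their median deviation was 0.16 in control 1 and 0.34 in *MaeaCsf1r-Cre* 1 on the log2 scale. Among the erythroid markers described above, *Car1*, *Klf1* and *Epor* were highest in the same libraries, whereas the globin genes were not. The neutrophil and granulocyte sum was also highest in the library numbered 1 of each group. A link between these markers and the import genes was not tested.

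The transcription factors known to act on mitophagy genes had a median of -0.13, with 8 of 12 negative, beside 60.9% of all genes tested. The median was 0.00 with a filter at a CPM of 10 and with quantile normalization, 0.01 with a correction for transcript length, -0.07 without control replicate 2, -0.08 without *MaeaCsf1r-Cre* replicate 1, -0.30 without *MaeaCsf1r-Cre* replicate 2 and -0.20 without control replicate 3. *Hif1a*, which encodes the oxygen-regulated subunit of HIF, was measured at 55.8, 64.8 and 86.5 CPM in controls 1, 2 and 3 and at 36.2, 42.7 and 58.7 CPM in *MaeaCsf1r-Cre* 1, 2 and 3. It was lower in 3 of 3 pairs, with a log2 fold change of -0.58 (SE 0.22, limma's adjusted p = 0.967, or 0.141 once the replicate number was a block). Its textbook target *Bnip3*, whose promoter is printed above, stood at -0.28 and was lower in the same 3 pairs, and neither gene passed. The HIF core was not particular to *Bnip3*. In the 250 bases searched, which were not cut at exons, ACGTG was also found for *Mfn2* and *Phb2*, and GCGTG for *Dnm1l*, *Mfn2* and *Pink1*. Of these, *Phb2* was higher in 3 of 3 pairs, and *Dnm1l*, *Mfn2* and *Pink1* had mixed directions. After the cut at annotated exons used for the printed promoters, ACGTG was left for *Phb2*, and GCGTG for *Mfn2* and *Pink1*, but neither for *Dnm1l*. A link between *Hif1a* and these genes was not tested. *Atf4*, a factor of the integrated stress response, had a log2 fold change of 0.34 (SE 0.19), lower in pair 3 and higher in pairs 1 and 2.

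**Figure D4:**
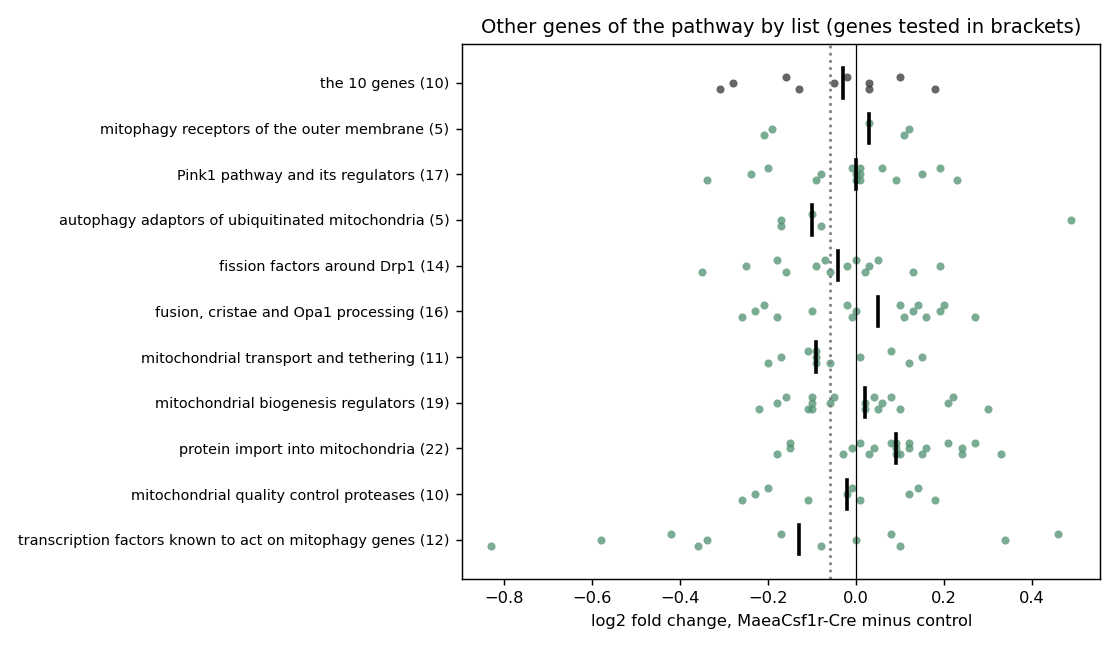
Log2 fold change (horizontal axis, *MaeaCsf1r-Cre* minus control) of each gene tested, 1 point per gene, for the 10 genes and the 10 lists of other pathway genes, with the number tested in brackets and 1 gene of the PINK1 list not plotted; black bars are medians and the dotted line is the median of all genes tested, -0.06. The list medians lie between -0.13 and 0.09, and 0 of the genes plotted passed the test.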

How the data were processed

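RNA-seq of 6 HSC libraries, 3 control and 3 MaeaCsf1r-Cre, was analysed from the table the authors deposited. The kits were SMART-Seq v4 and Nextera XT, and the authors trimmed the reads with Trim Galore, aligned them to mm10 with STAR 2.5.3a and quantified them in Partek against Ensembl 83. The deposited values are CPM with 0.0001 added, which was subtracted. Steps between low values gave the depth, but only 72.5 to 74.7% of low values lay within 0.02 of a whole read (up to 20 reads), so no count test was used. Listed genes held 75.2 to 80.2% of a library's reads. 27 symbols had been turned into dates, which left *Marchf5* out.

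The 12955 genes that reached a CPM of 1 in 3 or more libraries entered the test, on log2(CPM + 1) (pseudocount 1), with limma 3.58.1 in R 4.3.3 (mean-variance trend, two-sided, Benjamini-Hochberg threshold 0.05). The procedure was tested on simulated data. Replicate numbers come from the labels, which do not say what they mark. Same-numbered libraries deviated together, with Pearson's r of 0.627, 0.523 and 0.397 across genes, all above 0.1, so the fit was repeated with the number as a block. Nothing says that the numbers mark mice or a day, and p-values measure the spread between these libraries.

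The genes and lists were chosen with earlier results of these data known. Beside the 10 genes and *Maea*, the text names the 2 genes of each list with the smallest unadjusted p, and for the gene with the smallest p the 3 most similar genes; single marker genes, near-identical copies and *Phb* were named after their values were seen. The values of 1 gene that this rule names are not reported here. Positions, exon overlaps and lengths are from GENCODE M21 (GRCm38), copies from blastn 2.17.0+ (at least 90% identity over 200 bases), and promoters from RefSeq (GRCm38.p6). Alternatives were a filter raised to a CPM of 10 or dropped, a pseudocount of 0.1, median ratios, quantile normalization, no trend, a loess correction for transcript length, the replicate block, both together, and each library left out in turn. Figures and tables used matplotlib 3.10.9, pandas 2.3.3, numpy 2.4.6 and Python 3.11.15.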

Additional observations from a re-analysis of the deposited data

How the results depend on the processing

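Of the 10 genes and of the 125 other pathway genes, 0 passed the test in each of the 15 alternatives. Over the 10 genes and 15 alternatives (150 log2 fold changes) 20 changed sign, and *Bnip3* (-0.47 to -0.10) and *Fundc1* (-0.40 to -0.17) stayed below 0 in each. Correction for transcript length, without and with the replicate block, gave 0.10 for *Bnip3l*, 0.08 for *Dnm1l* and 0.01 for *Mfn2*, and median ratios gave 0.05 for *Bnip3l* and 0.01 for *Dnm1l*, where the cause was not tested. With one library left out, the values ran from -0.08 to 0.04 for *Bnip3l*, -0.11 to 0.03 for *Dnm1l*, -0.02 to 0.13 for *Fis1*, -0.07 to 0.32 for *Mfn1*, -0.09 to 0.17 for *Opa1*, -0.01 to 0.34 for *Phb2* and -0.39 to 0.04 for *Pink1*. The sign turned without MaeaCsf1r-Cre replicate 1 in *Bnip3l*, *Fis1*, *Mfn1*, *Opa1* and *Phb2*, without control replicate 2 in *Bnip3l*, *Fis1*, *Opa1* and *Pink1*, without MaeaCsf1r-Cre replicate 2 in *Dnm1l*, without MaeaCsf1r-Cre replicate 3 in *Fis1* and without control replicate 3 in *Mfn1*.

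The count of genes called in the whole table was 1, and 0 with a filter at a CPM of 10 (302 at an unadjusted p under 0.05), 12 with length correction and the replicate block together, and 0 to 1 with one library left out. The block, which pairs same-numbered libraries, moved the number of genes with an unadjusted p under 0.05 from 517 to 1805 and changed no call among the 10 genes. Of 165 list medians 12 moved beyond the spread. The 3 libraries a group limit what can be detected, since standard errors ran from 0.12 to 0.26.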

Other observations

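The genes whose pattern over the 6 libraries was most like that of *Fundc1*, the gene with the smallest p of the 10, were *Dicer1* (Pearson's r of 0.992), *Alg14* (0.991) and *Gm14305* (0.989), as a description of 6 libraries. *Dicer1* was measured at 27.2, 28.9 and 38.1 CPM in controls 1, 2 and 3 and at 23.0, 25.4 and 29.6 CPM in MaeaCsf1r-Cre 1, 2 and 3, highest in replicate 3 of each group as *Fundc1* was.

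The ratio of *Bnip3l* to *Bnip3* in CPM was 4.0, 2.5 and 2.64 in controls 1, 2 and 3 and 4.06, 3.75 and 3.05 in MaeaCsf1r-Cre 1, 2 and 3, higher in 3 of 3 pairs with overlap between the groups, and how reads of the sequence that each gene shares with copies or an antisense gene were assigned is not known. *Bnip3l-ps* was listed at 46.8, 52.5 and 46.3 CPM in controls 1, 2 and 3 and at 46.1, 56.3 and 54.2 CPM in MaeaCsf1r-Cre 1, 2 and 3.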
